A study of Homo sapiens with 4 samples.

Results

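CD33 and the cytohesin PSCD4 were followed together with their relatives in HCT116, an established human colon cancer cell line of epithelial origin. The 10 genes were CD33, the Siglecs SIGLEC5 to SIGLEC9 and the cytohesins PSCD1 to PSCD4, found by their gene name among 30982 gene names on the array. They were read by 15 of the 41000 probes. CD33 and PSCD4 were chosen by their strong ratios on these same arrays, so their ratios against the empty vector are given as a description, without a test. The 8 relatives were chosen by name. The PSCD names are older ones, and RefSeq gives them as CYTH1 to CYTH4.

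RNA of HCT116 clones that stably carry an shRNA against the long noncoding RNA N-BLR was set against RNA of HCT116 with the empty vector on 4 Agilent 2-color arrays. Clone #3-1 and clone #4-7 had 2 arrays each, called biological replicates in the labels. Each is a single clonal line, so an effect of the shRNA and a trait of that clone cannot be told apart. The labels put the shRNA clone in Cy5 and the empty vector in Cy3 on all 4 arrays, and no array had the dyes exchanged. Whether the replicates came from separate cultures is not given in the sources used here, so p-values measure only the spread between these arrays.

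The direction of every ratio rests on the labels, and the data went against them in 2 ways. The study's direction is the reverse of the labels' for E-cadherin and vimentin: with Cy5 as the clone, CDH1 had a log2 ratio of -2.60 in clone #3-1 and -1.34 in clone #4-7, and a VIM probe had 4.45 and 2.39. By the labels, Cy3 held the same control on every array and Cy5 held different clones. However, the Cy3 intensities differed between the clone #3-1 arrays and the clone #4-7 arrays at 18.3% of all probes (limma, p under 0.001), against 0.0927% of probes for Cy5. Of the 28575 bright probes, those that every array read well above background in Cy3, in Cy5 or in both, 1073 differed by 2-fold or more in Cy3 and 33 in Cy5. Values below are therefore given as Cy5 over Cy3, with both channels printed. If the dyes were exchanged, every sign would turn and every size would stay.

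CD33 is an inhibitory receptor of the Siglec family, membrane lectins that bind sialic acid on glycoproteins and glycolipids and are known mainly from myeloid cells. Its tail, once phosphorylated by Src family kinases, recruits the phosphatases PTPN6 and PTPN11. Cytohesins are exchange factors that load ARF GTPases with GTP. They reach the membrane by binding phosphoinositides such as PIP3, and ARF GTPases steer vesicle traffic and actin there. PSCD4 is known chiefly from leukocytes, whereas the other cytohesins are found in most cell types.

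The probe sequences are shown because each gene's pair of probes did not give the same ratio, and because Siglecs resemble each other in sequence. Each probe is 60 bases long and is written 5′ to 3′ as the scanner files give it, with the positions in the files' build, hg17. The upstream CD33 probe A_24_P301655 (chr19:56434663-56434722, plus strand) was set against the closest probe of a relative, SIGLEC5 probe A_24_P48539 (chr19:56807356-56807415, minus strand). Capitals mark the bases that both share in their best ungapped alignment.
CD33 A_24_P301655: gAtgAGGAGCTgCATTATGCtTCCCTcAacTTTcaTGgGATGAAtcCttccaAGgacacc
SIGLEC5 A_24_P48539: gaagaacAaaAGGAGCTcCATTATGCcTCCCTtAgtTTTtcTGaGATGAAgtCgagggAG
They shared 36 of 54 aligned bases, and the longest shared run was 8 bases. SIGLEC5 was also the closest among the 40998 probes with another gene name, and none of these shared 40 or more bases with the CD33 probe.

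The downstream CD33 probe A_23_P331748 (chr19:56434810-56434869, plus strand) began 87 bases after the end of the upstream one. Its first 30 bases are given to tell the pair apart.
CD33 A_23_P331748, first 30 bases: gggaccaaaggctgattcttggagatttaa
Its closest probe with another gene name shared 31 of 60 bases, so neither CD33 probe had a near copy on the array. The PSCD4 probes lay much farther apart, with 20317 bases of chromosome 22 between the upstream A_24_P74559 (chr22:36015202-36015261) and the downstream A_23_P155057 (chr22:36035579-36035638), both on the plus strand. The upstream sequence is shown whole and the downstream one by its first 30 bases.
PSCD4 A_24_P74559: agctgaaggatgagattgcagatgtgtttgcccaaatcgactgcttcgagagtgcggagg
PSCD4 A_23_P155057, first 30 bases: accttgtgggacatctgaggacatccgcag
Each PSCD4 probe shared at most 32 bases with a probe of another gene name. Among the relatives, SIGLEC7 probe A_23_P50175 was the one with a close match, 46 of 55 aligned bases with SIGLEC12 probe A_23_P164596.

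CD33 was lower in Cy5 than in Cy3 on all 4 arrays at both probes. The normalized Cy3 intensities of A_23_P331748 were 4819 and 4754 on the clone #3-1 arrays and 2278 and 2289 on the clone #4-7 arrays. The Cy5 intensities were 782, 797, 777 and 826 in the same order. The log2 ratio was -2.60 ± 0.03 (SD, n = 2) in clone #3-1, a 6.06-fold lower level in Cy5, and -1.51 ± 0.06 (SD, n = 2) in clone #4-7, or 2.85-fold lower. The clones' ratios did not overlap, and the gap lay in Cy3.

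The upstream CD33 probe A_24_P301655 gave the same order. Its Cy3 intensities were 3143 and 3280 with clone #3-1 and 1650 and 1740 with clone #4-7, and its Cy5 intensities ranged from 626 to 677. The log2 ratio was -2.25 ± 0.04 (SD, n = 2) in clone #3-1 and -1.41 ± 0.01 (SD, n = 2) in clone #4-7. The ratio of A_23_P331748 was the more negative of the pair on each array, by -0.40 and -0.30 with clone #3-1 and by -0.15 and -0.06 with clone #4-7 on the log2 scale. Both probes therefore read the same direction, and the distance between them was narrower in clone #4-7.

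PSCD4 had ratios close to those of CD33 at its downstream probe. The Cy3 intensities of A_23_P155057 were 1051 and 1082 with clone #3-1 and 487 and 556 with clone #4-7. The Cy5 intensities were 205, 221, 180 and 210 in the same order. The log2 ratio was -2.33 ± 0.04 (SD, n = 2) in clone #3-1, or 5.01-fold lower in Cy5, and -1.42 ± 0.03 (SD, n = 2) in clone #4-7, or 2.68-fold lower. Its size in both clones depended on the background correction. From the processed signals of the scanner software the log2 ratio was -2.88 in clone #3-1 and -2.01 in clone #4-7.

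The upstream PSCD4 probe A_24_P74559 was dim. It was well above background on 3 of 4 arrays in Cy3 and on 1 of 4 in Cy5. With clone #3-1 the Cy5 channel was not well above background on either array, and Cy3 was at least 1.51-fold higher. This bound sets the mean of the Cy3 signal against the lowest signal that was well above background in Cy5. With clone #4-7 only replicate 2 measured it, with intensities of 138 in Cy5 and 141 in Cy3. PSCD4 thus had 1 probe with a wide gap between the channels and 1 probe too dim to give a fold in clone #3-1.

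Among all probes with a ratio below 0, CD33 probe A_23_P331748 ranked 23rd in clone #3-1 and 167th in clone #4-7, and PSCD4 probe A_23_P155057 ranked 33rd and 206th. In clone #3-1, 16.4% of all probes were lower in Cy5 (limma, p under 0.001) and 16.3% were higher, 32.7% in all. In clone #4-7, 15.0% were lower and 16.1% higher, 31.1% in all. The plot of the clones against each other places CD33 and the downstream PSCD4 probe at the edge of the cloud of probes, with the relatives near its center.

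**Figure D1:**
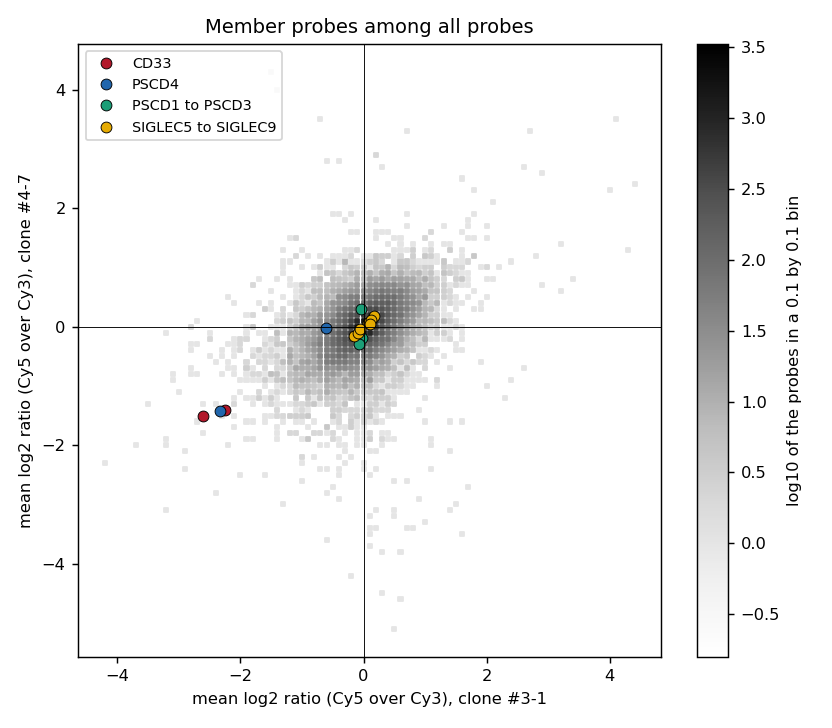
Mean log2 ratio (Cy5 over Cy3) in clone #3-1 (horizontal axis) and clone #4-7 (vertical axis), with all probes as gray bins shaded by their number and the 15 member probes as colored points. Both CD33 probes and the downstream PSCD4 probe sit near -2.3 to -2.6 and -1.4 to -1.5, the upstream PSCD4 probe at -0.60 and -0.03, and the relatives near 0.

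The relatives differed far less. None of their 11 probes passed p under 0.001 in clone #3-1 (limma), beside 32.7% of all probes, and 4 had an unadjusted p under 0.05. In clone #4-7, 2 of 11 passed, beside 31.1%. Their median log2 ratio was -0.02 in clone #3-1 and 0.04 in clone #4-7, close to the medians over all probes of 0.01 and 0.01. Most relatives were too dim to show a change: 4 of the 11 probes were bright by that definition, against 3 of the 4 CD33 and PSCD4 probes.

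PSCD1, or cytohesin-1, was measured in both channels on every array. Its Cy3 intensities were 7421 and 7706 with clone #3-1 and 9022 and 9156 with clone #4-7, and its Cy5 intensities were 7524, 7364, 8103 and 7893. The log2 ratio of probe A_23_P83781 was -0.02 ± 0.06 (SD, n = 2) in clone #3-1 and -0.18 ± 0.04 (SD, n = 2) in clone #4-7. Neither passed the threshold, and the limma adjusted p was 0.629 and 0.00874. The replicates of clone #3-1 lay on either side of 0.

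PSCD2 was lower in Cy5 than in Cy3 in clone #4-7. The log2 ratios of probe A_23_P119377 were -0.06 and -0.10 with clone #3-1 and -0.288 and -0.291 with clone #4-7. The limma adjusted p was 0.000711 for the mean of -0.29 in clone #4-7 and 0.0754 for -0.08 in clone #3-1. Its intensities were 941, 890, 988 and 1016 in Cy3 and 905, 833, 809 and 831 in Cy5.

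PSCD3 was higher in Cy5 than in Cy3 in clone #4-7, opposite to PSCD2. The log2 ratios of probe A_23_P111593 were -0.042 and -0.043 with clone #3-1 and 0.315 and 0.289 with clone #4-7. The limma adjusted p was 0.000564 for the mean of 0.30 in clone #4-7 and 0.259 in clone #3-1. Its Cy3 intensities were 562 and 534 with clone #3-1 and 418 and 457 with clone #4-7, and its Cy5 intensities lay between 518 and 558 on all arrays. The calls of PSCD2 and PSCD3 in clone #4-7 were both lost without either array of that clone and by plain background subtraction. They are small next to PSCD4, whose downstream probe had -1.42 in the same clone.

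SIGLEC5 to SIGLEC9, receptors known from neutrophils, monocytes, eosinophils, natural killer cells and, for SIGLEC6, the placenta, were at or near background. Over their 8 probes, 8 of 64 channel readings were well above background, and 6 probes had no such reading. Their normalized intensities ranged from 80.4 to 120 in Cy3 and from 81.2 to 120 in Cy5, and every log2 ratio on every array lay between -0.27 and 0.23. None of the 8 probes passed p under 0.001 in either clone, while 3 in clone #3-1 and 1 in clone #4-7 had an unadjusted p under 0.05. A difference between the channels was thus not detectable for most of them at this signal.

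The readings above background belonged to SIGLEC5 and SIGLEC6. SIGLEC5 probe A_23_P15995 passed in Cy3 on 4 arrays and in Cy5 on 1, with intensities of 118, 109, 105 and 120 in Cy3 and 105, 97.5, 103 and 99.7 in Cy5. Its log2 ratio of -0.16 in clone #3-1, where Cy5 was not well above background on either array, did not pass the threshold. The other SIGLEC5 probe, A_24_P48539, which is the one that resembles CD33, was not well above background in either channel on any array. SIGLEC6 probe A_23_P4592 was above background in Cy5 on 3 arrays and in Cy3 on none, with Cy5 intensities of 101 to 120 over the 4 arrays. By the bound used for PSCD4, its mean Cy5 signal was 1.09-fold above the limit in clone #3-1, where 1 of 2 arrays measured it, and 1.1-fold in clone #4-7. These bounds rest on signals near background. The probe did not pass the threshold in either clone (limma adjusted p 0.0102 and 0.0106).

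**Figure D2:**
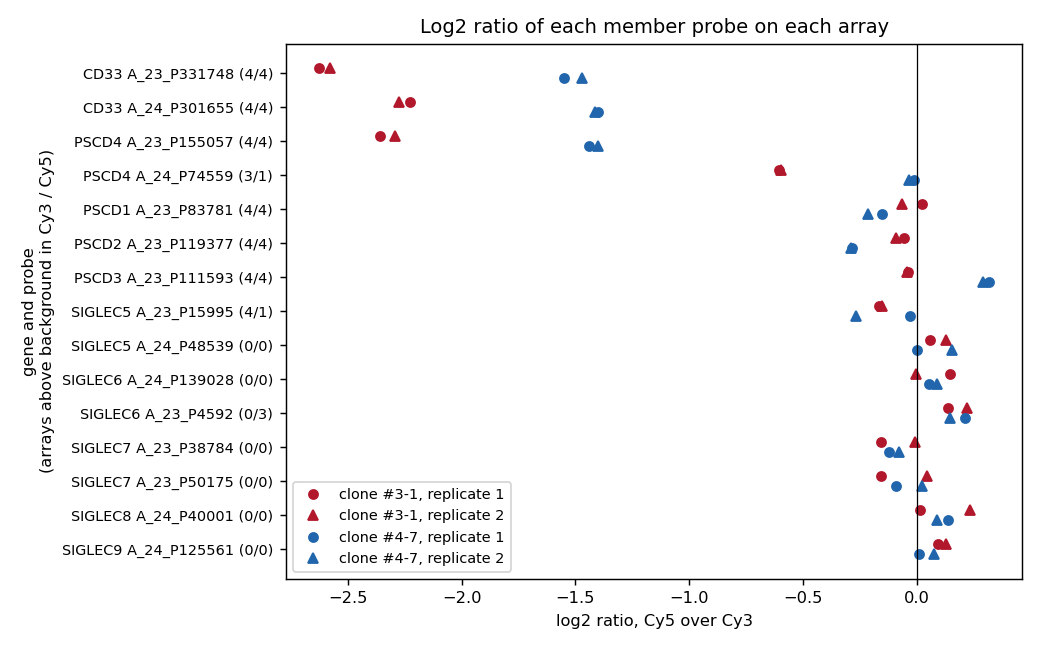
Log2 ratio (Cy5 over Cy3, horizontal axis) of the 15 member probes on each of the 4 arrays, with clone #3-1 in red and clone #4-7 in blue, circles for replicate 1 and triangles for replicate 2, and beside each probe the number of arrays well above background in Cy3 and Cy5. The CD33 probes and PSCD4 A_23_P155057 lie below -1.39 on all arrays, PSCD4 A_24_P74559 lies near -0.60 with clone #3-1 and near 0 with clone #4-7, and all relatives lie between -0.30 and 0.32.

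The ratios of CD33 and PSCD4 were further below 0 in clone #3-1 than in clone #4-7. The difference is made of the ratios that chose these genes, so for them it is a description. The difference of log2 ratios, clone #3-1 minus clone #4-7, was -1.09 at CD33 probe A_23_P331748 and -0.84 at A_24_P301655. It was -0.90 at PSCD4 probe A_23_P155057. The dim PSCD4 probe A_24_P74559 gives no difference that can be read, since its Cy5 signal was not well above background in clone #3-1.

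The relatives, chosen by name, were tested. Of their 11 probes 1 passed p under 0.001 for this contrast (limma), beside 22.6% of all probes, and it was PSCD3, with -0.34 (95% interval -0.45 to -0.24, adjusted p 0.00181). This call is the least stable, as it passed under 5 of 14 alternative settings. PSCD1 and PSCD2 had 0.16 (adjusted p 0.0539) and 0.21 (adjusted p 0.0106), and neither passed p under 0.001. Of the 8 SIGLEC probes none passed, and none had an unadjusted p under 0.05 (limma).

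Set channel by channel, the difference at both CD33 probes and the downstream PSCD4 probe lay in Cy3, which the labels give as the shared empty vector. CD33 probe A_23_P331748 was 2.10-fold brighter in Cy3 with clone #3-1 than with clone #4-7, a log2 difference of 1.07. In Cy5 its log2 difference was -0.02. The upstream probe A_24_P301655 had 0.92 in Cy3 and 0.08 in Cy5.

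PSCD4 probe A_23_P155057 was 2.05-fold brighter in Cy3 with clone #3-1, a log2 difference of 1.04, and had 0.13 in Cy5. The dim probe A_24_P74559 had 0.14 in Cy3 and -0.43 in Cy5, where 1 array measured it. PSCD3 passed in neither channel alone, with 0.32 in Cy3 (limma adjusted p 0.0145) and -0.02 in Cy5 (adjusted p 0.939). Which RNA was in which channel was not tested by any exchange of dyes.

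**Figure D3:**
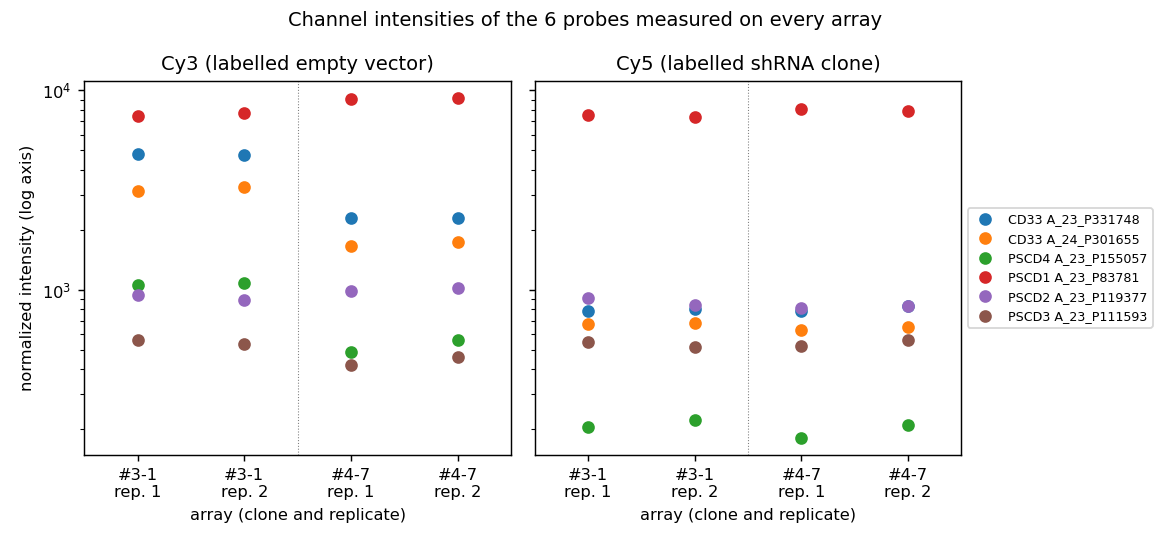
Normalized intensity (vertical log axis) in Cy3 (left) and Cy5 (right) of the 6 member probes measured in both channels on every array, by array. In Cy3 the points of CD33 and PSCD4 drop from clone #3-1 to clone #4-7, from 4819 and 4754 to 2278 and 2289 for CD33 A_23_P331748, while in Cy5 they stay between 777 and 826 for that probe.

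**Figure D4:**
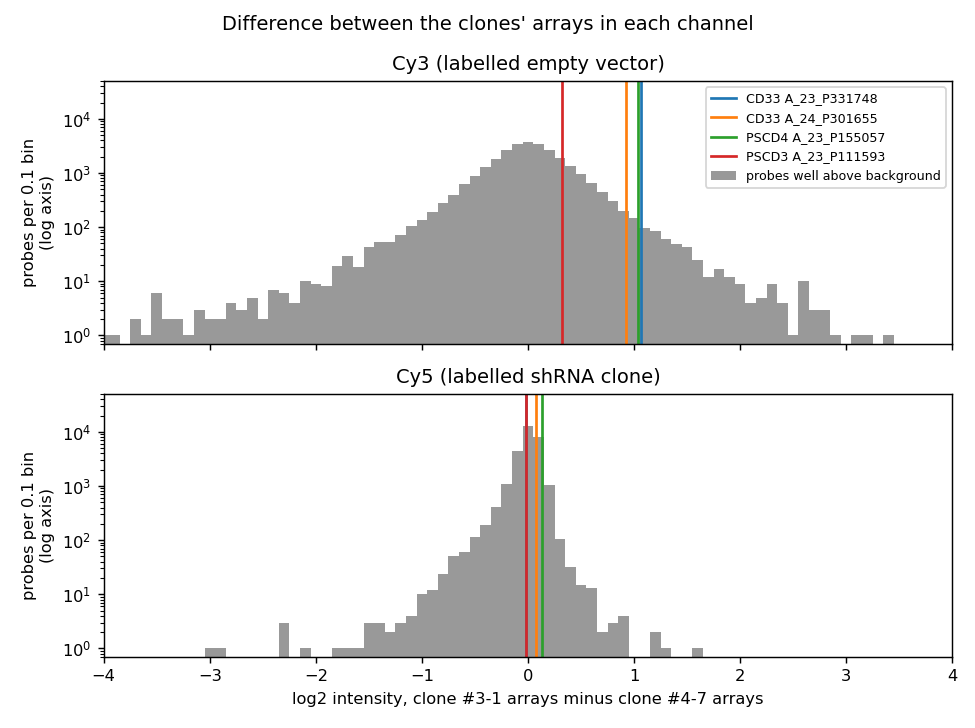
Number of probes (vertical log axis) by the difference in log2 intensity between the clone #3-1 and clone #4-7 arrays, for Cy3 (top) and Cy5 (bottom), over the probes well above background, with colored lines at 4 member probes. The Cy3 distribution is the broader, with an SD of 0.46 against 0.13 in Cy5, and CD33 and PSCD4 lie near 1 in Cy3 and near 0 in Cy5.

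The genes with the pattern most like CD33 and PSCD4 were sought among 28539 and 28540 probes well above background, by the Euclidean distance of the log2 ratios over the 4 arrays. Nearest to CD33 probe A_23_P331748 were GALNT3, an enzyme that starts O-linked glycans, at a distance of 0.148, CDH1, which encodes E-cadherin, at 0.237, and ALOX5, the 5-lipoxygenase of leukotriene synthesis, at 0.397. PSCD4 followed at 0.411, and RGS2, a regulator of G protein signaling, at 0.424. Nearest to PSCD4 probe A_23_P155057 were RND3 at 0.129, the upstream CD33 probe at 0.139, HLA-DQB1 at 0.159, ALOX5 at 0.185 and HLA-DRB5 at 0.200. HLA-DQB1 and HLA-DRB5 encode chains of class II antigen-presenting molecules. The mean log2 ratios of these probes ran from -2.24 for RND3 to -2.68 for GALNT3 in clone #3-1. CD33 and PSCD4 were both chosen by these ratios, so their nearness to each other is a description.

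Around CD33, all but 1 of the nearest genes were at or near background on these arrays. SIGLEC7 and the pseudogene SIGLECP3 on one side and FLJ40235 on the other had no reading well above background, nor did the unnamed probe A_24_P143257. The transcript THC2420896 had 1 such reading in each channel. THC2352847, 55.5 kb away, was measured on all arrays, with log2 ratios of 0.11 and -0.14. Within 500 kb of CD33, 9 of 61 probes were lower and 3 higher in Cy5 in clone #3-1, and 6 lower and 4 higher in clone #4-7. The shares over all probes were 16.4% and 16.3%, then 15.0% and 16.1%. The lowest ratio there was -1.003 in clone #3-1, well short of CD33 itself.

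Around PSCD4, several neighbors were also lower in Cy5. RAC2, a GTPase of blood cells, had 3 probes with log2 ratios of -0.43 (A_24_P228717), -0.80 (A_23_P218770) and -0.71 (A_23_P218774) in clone #3-1, limma adjusted p 0.000165 or lower. In clone #4-7 the same probes had 0.19, -0.32 and -0.17, so they did not share a direction. SSTR3, a somatostatin receptor, had -0.22 in clone #3-1 and C1QTNF6 had -0.61 (limma adjusted p 0.0016 and 8.08e-05). In clone #4-7 SSTR3 had -0.11 and C1QTNF6 had -0.04, and neither passed the threshold (limma adjusted p 0.024 and 0.38).

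On the other side of PSCD4, BC043218 had -1.84 in clone #3-1 and -0.02 in clone #4-7. THC2341263 had -1.12 and -0.23, and KIAA1904 had -1.50 and -0.81 (limma adjusted p 1.09e-05 and 3.75e-05). Within 500 kb, 19 of 47 probes were lower in clone #3-1 and 4 higher, beside 16.4% and 16.3% of all probes. In clone #4-7, 11 were lower and 9 higher, beside 15.0% and 16.1%. Of the 47 probes, 8 were lower in both clones, and 39 were bright. Among all bright probes, 46.1% were called in clone #3-1 and 44.0% in clone #4-7, in either direction.

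**Figure D5:**
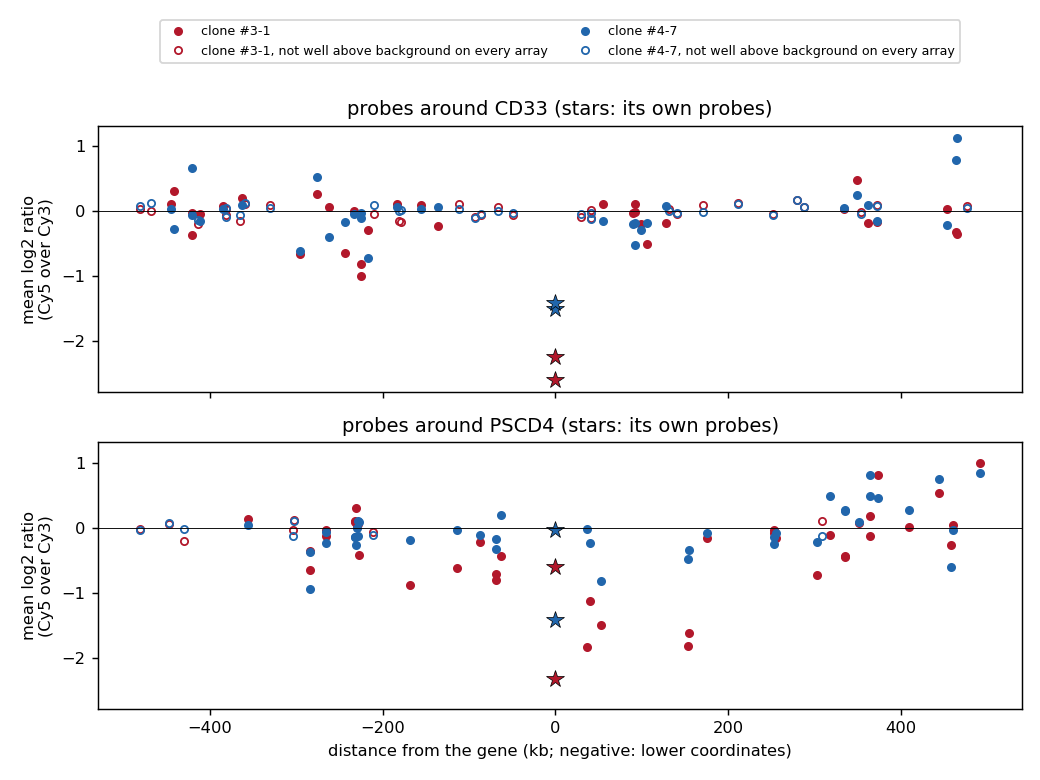
Mean log2 ratio (Cy5 over Cy3, vertical axis) of the probes within 500 kb of CD33 (top, 61 probes) and PSCD4 (bottom, 47 probes) by distance in kb, with clone #3-1 in red, clone #4-7 in blue, open circles for probes not well above background on every array and stars for the gene's own probes. The lowest neighbor of CD33 is at -1.003, while neighbors of PSCD4 reach -1.84 with clone #3-1.

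Most colon epithelial markers were measured, and so were some leukocyte markers. Of 11 colon epithelial marker genes, 8 were measured on all arrays, among them TACSTD1 (EpCAM), KRT8, KRT18, KRT19 and CDX2, while VIL1, CDX1 and CDH17 had no reading above background. Of 14 myeloid marker genes, 8 were measured, and SPI1, LYZ, CSF3R, LILRB1 and ELA2 had no reading above background. MPO had 2 readings, both in Cy3. Of 14 other leukocyte genes, 8 were measured, and PTPRC, the pan-leukocyte CD45, had none, nor had CD3D, MS4A1, NKG7 and LCP2.

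The summed intensity of the myeloid markers was higher in Cy3 with clone #3-1 than with clone #4-7, as at CD33 and the downstream PSCD4 probe. It was 5492 and 5205 with clone #3-1 and 2867 and 2920 with clone #4-7 in Cy3. Its Cy5 sums stayed between 3332 and 3531. With clone #4-7 the Cy3 sums thus lay below the Cy5 sums, unlike CD33 and the downstream PSCD4 probe. The other leukocyte markers summed to 62050 and 63160, then 46360 and 45480, in Cy3 and to between 39390 and 40490 in Cy5. The epithelial markers were also higher in Cy3 with clone #3-1, with 693000 and 666600, then 531400 and 502500, and had 453000 to 468200 in Cy5. A sum of intensities is set mainly by the brightest probes of a list. The median log2 ratios, clone #3-1 then clone #4-7, were -0.04 and 0.001 over the myeloid list. They were 0.03 and -0.0005 over the other leukocyte list and -0.08 and -0.10 over the epithelial list. The part of these markers in the CD33 and PSCD4 ratios was not tested. All RNA was from HCT116, a cell line of epithelial origin. These sums are thus of marker genes and do not count cells of each type. Bulk RNA does not show whether all cells of a culture changed or only some.

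Among the myeloid markers, CSF1R, the receptor of macrophage colony-stimulating factor, had -2.30 in clone #3-1 and -0.38 in clone #4-7 (limma adjusted p 1.40e-05 and 0.0025). The integrin ITGAX had -1.86 and -0.69 at A_23_P312132 but -0.51 and -0.04 at A_24_P344251, which was not bright. FCER1G, an Fc receptor chain, had 0.24 and 0.20. CD68 turned between the clones, with -0.73 and 1.04, and ITGAM had 0.21 and 0.47. Of the 15 myeloid probes, 4 were lower and 1 higher in clone #3-1, and 2 lower and 3 higher in clone #4-7, near the 32.7% and 31.1% called among all probes. Among the other leukocyte genes, 4 of 18 probes were lower and 1 higher in clone #3-1, and 3 lower and 2 higher in clone #4-7. VAV1 had -0.90 and -0.33.

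Of the 17 epithelial probes, 6 were lower in clone #3-1, and 6 were lower and 1 higher in clone #4-7. Of all probes 32.7% and 31.1% were called in either direction. Of bright probes, which 12 of the 17 were, 46.1% and 44.0% were called. TACSTD1 had -1.04 and -0.44 and KRT8 probe A_23_P14072 had -0.69 and -0.90. KRT18 had -0.29 and -0.46 at probe A_23_P99320, and KRT19 turned from -0.80 to 0.36. Both the myeloid and the epithelial list held calls in either direction in clone #4-7, and CD33 was further from 0 there than any marker named.

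The lists below are read against the shares over all probes, 16.4% lower and 16.3% higher in clone #3-1 and 15.0% and 16.1% in clone #4-7. Among the bright probes alone, 46.1% passed in clone #3-1 and 44.0% in clone #4-7, in either direction. Of 10 probes for further Siglecs, 1 passed in clone #3-1, a MAG probe higher in Cy5 (limma adjusted p 0.00218), whose Cy3 signal was not well above background on any array and so gives no ratio. None passed in clone #4-7, where 3 had an unadjusted p under 0.05, and CD22, the Siglec of B cells, had 0.22 and 0.38. Of 16 probes for Siglec signaling, 5 were lower and 2 higher in Cy5 in clone #3-1, and 4 lower and 3 higher in clone #4-7. Their median log2 ratio was 0.05 and -0.02.

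Within that list, SYK, the tyrosine kinase that Siglecs with activating partners use, had -2.43 ± 0.03 (SD, n = 2) in clone #3-1 and -0.62 ± 0.08 in clone #4-7. INPP5D, the lipid phosphatase SHIP1, had -1.26 and -0.91. PTPN11, the phosphatase SHP2, had 0.19 and 0.31 at A_23_P204090, the only one of its probes past the threshold. Its other probes had 0.13 and 0.09 (A_32_P61757), 0.07 and 0.12 (A_23_P105436) and -0.08 and -0.11 (A_23_P99027). The probes of CBL, a ubiquitin ligase, gave opposite signs, with -0.63 and -0.36 at A_23_P339191 and 0.27 and 0.42 at A_23_P53226. SRC turned between the clones with -0.19 and 0.51. SOCS3 had 0.08 and -0.27 at A_23_P207058 and 0.07 and -0.05 at A_23_P351069.

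The enzymes that make, attach or remove sialic acid, the ligand of Siglecs, were mixed. Of 42 probes, 12 were lower and 6 higher in clone #3-1, and 4 lower and 2 higher in clone #4-7, with medians of 0.00 and -0.02. ST6GALNAC2 had -1.15 and -0.78 at A_23_P49499 but -0.17 and -0.03 at A_32_P9597. ST6GALNAC6 had -0.41 and -0.60 and ST6GALNAC3 had -0.22 and -0.55. ST3GAL2 was the reverse at A_23_P77623, with 0.32 and 0.77, but had 0.13 and -0.02 at A_24_P48177. GNE, which makes the sialic acid precursor, had 0.86 and 0.19 and the transporter SLC35A1 had -0.70 and 0.14.

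The ARF GTPases, which cytohesins load with GTP, were lower in Cy5 at 6 of 11 probes in clone #3-1, and in clone #4-7 they were lower at 2 and higher at 2. All 11 were bright, and 46.1% and 44.0% of bright probes were called in clone #3-1 and clone #4-7. ARF6, the plasma membrane ARF, had -0.67 and -0.23. ARF1 had -0.47 and -0.80 at probe A_24_P566891 but -0.27 and -0.04 at A_24_P259490. Its other probes had -0.23 and 0.03 (A_23_P201086) and 0.01 and 0.18 (A_24_P190894). ARF5 had -0.40 and -0.10 at A_24_P394702. Beside their median of -0.23 in clone #3-1, the median over all probes was 0.01.

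Of 16 probes for other ARF exchange factors, 3 were lower and 1 higher in clone #3-1 and 2 lower and 2 higher in clone #4-7. IQSEC2 had 0.47 and 0.27 at A_23_P330788 but 0.09 and -0.01 at A_32_P159445. ARFGEF1 had -0.37 and -0.26, while PSD2 had -0.50 and -0.12 and PSD4 the reverse order, -0.11 and -0.50. The ARF GTPase-activating proteins, which switch ARFs off, were lower at 18 of 41 probes and higher at 4 in clone #3-1, and lower at 10 and higher at 5 in clone #4-7. Of these 41 probes 39 were bright, so their calls stand beside the 46.1% and 44.0% of bright probes and not only the 32.7% and 31.1% of all. DDEFL1 had -0.45 and -0.62, whereas HRB had 0.70 and 0.54. CENTD2 had -0.58 and -0.44 at A_23_P105184 but -0.24 and -0.06 at A_24_P398432. CENTA2 had -0.48 and -0.41 at A_23_P49816, whereas its probe A_24_P373562 turned from -0.40 to 0.21. DDEF2 turned from -0.25 to 0.64 at A_23_P40088, and the GIT2 probes disagreed in clone #3-1, with -0.86 at A_23_P204436 and 0.70 at A_23_P335848.

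Among 19 probes for cytohesin partners, 2 were lower and 1 higher in clone #3-1 and 4 lower and 2 higher in clone #4-7. C1orf106, which encodes an epithelial cytohesin-binding protein, had -2.08 and -0.21 at A_23_P1043. Its other probe, A_32_P107208, had no Cy5 reading well above background and 2 in Cy3, so it gives no ratio. CCDC120 had -0.33 and -0.48 at A_23_P73540 but 0.13 and 0.02 at A_24_P48983. The integrin ITGB2 was higher in Cy5 in both clones (limma adjusted p 0.000229 and 0.000206), but its Cy3 signal was not well above background on any array and so gives no ratio. PSCDBP, a cytohesin-binding protein of lymphocytes, had no Cy5 reading above background and 2 in Cy3. FRMD4B had -0.24 and -0.31.

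Among 19 probes for the enzymes that make and remove PIP3, the membrane anchor of cytohesins, 7 were lower in clone #3-1, and 3 were lower and 2 higher in clone #4-7. Besides INPP5D, which stands in this list too, PIK3R2 had -0.67 and -0.42 and INPPL1, the phosphatase SHIP2, had -0.59 and -0.28. PIK3R3 had -0.60 and -0.29. Of the genes named from these pathway lists, SYK and C1orf106 (A_23_P1043) came near the downstream PSCD4 probe in clone #3-1. In clone #4-7 both were closer to 0 than that PSCD4 probe.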

How the data were processed

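The authors deposited 1 scanner file per array, made with Agilent Feature Extraction (version 9.5.3.1 per the file headers, 8.5.1.1 per the processing notes; genome build hg17), with Cy3 and Cy5 intensities of the spots and their surrounding background, not normalized. The same deposited files hold processed intensities, the log10 ratio of Cy5 over Cy3 and flags of 0 or 1 for outlier, saturated and well-above-background spots. A further deposited table, of the authors' log10 ratios, lay within 0.005 of the scanner log10 ratios, with a median of 0 in each column; no column was left unused for want of a sample (0 such columns). From 68.5% to 72.6% of the 43376 probe spots per channel were well above background. Precision is limited by the number of arrays. All 4 arrays lay on 1 slide. No member spot was flagged as an outlier or saturated.

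From the deposited intensities, log2 ratios were computed in limma (version 3.58.1; R version 4.3.3): normexp background correction with an offset of 50, loess within arrays with control spots at weight 0, quantile normalization between arrays, and the mean over the spots of a probe. Spots flagged as outliers were left out. All 41000 probes entered 1 linear model over the 4 arrays, with 1 coefficient per clone and empirical Bayes moderation. A ratio was tested against 0, so the control's own spread is left out, and the clones were compared by their contrast. The threshold was an unadjusted p under 0.001, after the study's methods, and Benjamini-Hochberg adjusted p-values over all probes are given beside it. Single channels were compared between the clones' arrays with the same model on the log2 normalized intensities, a comparison chosen after seeing the data. The scripts were tested on simulated data.

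The members and lists were chosen with earlier results of these data known. Genes named beyond the members were, for each list, up to 4 that passed with equal sign in clone #3-1 and clone #4-7 (by mean size) and up to 2 others, the 3 nearest genes on each side of CD33 and PSCD4, and the 5 nearest probes by pattern for each. All further probes named for a gene are of these genes. The lists hold genes in common. Probe sequences and gene names are those of the scanner files. Alternatives tried were other background corrections and normalizations, the authors' table, a filter on dim probes, an intensity trend, an adjusted threshold, separate fits, a replicate block and leaving out each array. Some results of the named-gene rule are not reported here.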

Additional observations from a re-analysis of the deposited data

Results flagged for a closer look

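A difference between the clones singled out 5 of the 15 member probes, by limma's contrast at p under 0.001. The same contrast called 22.6% of all probes and 32.0% of bright probes. CD33 and PSCD4 were chosen by ratios that make up this contrast, so for their 4 probes it is a description and no test. The difference of log2 ratios, clone #3-1 minus clone #4-7, was -1.09 for CD33 A_23_P331748, -0.84 for CD33 A_24_P301655, -0.90 for PSCD4 A_23_P155057, -0.58 for PSCD4 A_24_P74559 and -0.34 for PSCD3 A_23_P111593. The value of A_24_P74559 cannot be read as a size, since its Cy5 signal was not well above background with clone #3-1. At both CD33 probes and the downstream PSCD4 probe the difference lay in Cy3, which the labels give as the empty vector on every array. PSCD3 passed in neither channel alone.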

How the results depend on the processing

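The ratios of both CD33 probes and of the downstream PSCD4 probe kept their sign in both clones under all 15 alternatives, and the differences between the clones kept theirs under the 14 that fit the ratio and could give them. The CD33 difference at A_23_P331748 ranged from -1.13 to -1.05. The PSCD4 difference at A_23_P155057 ranged from -1.01 to -0.86. Fits on each clone's own arrays give no difference between the clones.

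The count of relatives past the threshold in clone #4-7, 2 as reported, was 1 with a normexp offset of 0, 0 by plain background subtraction, 1 with loess alone, 1 with Aquantile and 4 at an adjusted p under 0.05, and ranged from 0 to 2 when each array was left out. It was 0 without either array of clone #4-7. For clone #3-1 it was 0 except for 2 at an adjusted p under 0.05. The count of member probes past the threshold for the difference between the clones, 5 with the probes of CD33 and PSCD4 included, was 7 with an intensity trend, 6 at an adjusted p under 0.05, 3 with a normexp offset of 0, 3 by plain background subtraction, 3 from the authors' table, 3 in Cy3 alone and 0 in Cy5 alone. The cause of these shifts was not tested. In Cy5 alone the differences turned sign at CD33 A_24_P301655 (0.079), PSCD4 A_23_P155057 (0.13) and PSCD1 (-0.10). Leaving out each array, the PSCD1 ratio in clone #3-1 ranged from -0.065 to 0.020, the latter without replicate 2 of that clone.

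With the replicate number as a block, 4 member probes passed for the difference between the clones and PSCD3, at -0.34, no longer passed, while the counts of relatives stayed at 0 and 2. The deviations of same-numbered arrays correlated at -0.01 over probes, and with 2 pairs the arrays share only a number.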
